A study of Mus musculus with 5 samples.

Results

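Interferon-stimulated genes are switched on when type I or type II interferon binds its receptor and the signal is carried to their promoters in the nucleus. The 10 genes described here were chosen by name as antiviral effectors or as parts of the ISG15 pathway: Isg15, Ube2l6, Usp18, Ifit1, Isg20, Rsad2, Samhd1, Bst2, Rtp4 and Zbp1. The choice was made with earlier results of these data known. ISG15 is a small protein that resembles ubiquitin and is joined to other proteins, UBE2L6 is the conjugating enzyme of that reaction, and USP18 removes ISG15 again and dampens signalling at the type I interferon receptor. IFIT1 binds viral RNA, ISG20 is an RNA exonuclease, viperin (Rsad2) makes an altered nucleotide that stops viral polymerases, SAMHD1 destroys deoxynucleotides, tetherin (Bst2) holds budding virions at the cell surface, and ZBP1 senses left-handed nucleic acid. RTP4 is a chaperone of membrane receptors that is also induced by interferon.

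All 10 symbols occurred among the 688 distinct symbols in the deposited lists. The lists come from droplet single-cell RNA sequencing of group 2 innate lymphoid cells (ILC2s) of untreated male wild-type C57BL/6 mice aged 6 weeks, with cells of 10 mice pooled and 1 library for each of 5 tissues. Bone marrow (BM), large intestine (LI), lung and pancreas ILC2s were sorted as lineage-negative cells with ST2 and CD25, and small intestine (SI) ILC2s as lineage-negative CD45+ cells with KLRG1 and with Thy1 that the deposited description calls intermediate and the study's methods call low. BM was flushed from the femur and tibia without enzyme, whereas collagenase was applied for 30 min to pancreas, for 1 h to lung and for 1.5 h to LI and SI. Lung, LI and SI libraries were made in 1 batch, and BM and pancreas libraries in another.

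The authors divided the ILC2s of each tissue into sub-clusters, numbered from 0, and listed for each the genes with higher expression than in every other sub-cluster in turn (1 versus 1) and than in all others together. The 36 sub-clusters gave 262 lists, 226 of them 1 versus 1 and 36 against all, and 23 lists were empty. A list holds symbols and no level, fold change or cell number, so the depth is unknown, no fold change can be stated and there is no replicate error. The sub-clusters were drawn from the expression of the same cells, so a listing is a description and not an independent test. The genes that the authors tested are not named, and shares below are of the 688 symbols that stood in any list. Identity of the sorted cells could not be checked, since the lists show differences and not levels. Of 12 ILC2 markers, 9 were in some list, and Il1rl1, Il7r and Il17rb were in none.

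The promoters of 4 of the genes held the interferon-stimulated response element, a DNA word of interferon-induced promoters, and they are shown because this element is the textbook route from an interferon signal to the genes it induces. The word searched was GAAA, then any 2 bases, then GAAA, on either strand, from 250 bases before to 50 bases after the RefSeq start (assembly GRCm38.p6, the mm10 build). Each line gives the 100 bases from position -140 to -41, 5′ to 3′ on the strand of the gene, with every matching base in capitals.
Isg15, chr4:156200859-156200958, minus strand: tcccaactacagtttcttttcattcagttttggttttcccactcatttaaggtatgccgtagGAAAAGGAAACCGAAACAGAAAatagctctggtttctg
Ifit1, chr19:34640749-34640848, plus strand: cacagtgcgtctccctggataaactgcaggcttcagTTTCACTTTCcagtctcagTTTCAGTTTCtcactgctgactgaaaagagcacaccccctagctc
Rsad2, chr12:26456493-26456592, minus strand: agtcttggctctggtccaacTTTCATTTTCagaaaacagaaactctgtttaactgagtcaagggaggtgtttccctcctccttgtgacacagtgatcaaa
Bst2, chr8:71537513-71537612, minus strand: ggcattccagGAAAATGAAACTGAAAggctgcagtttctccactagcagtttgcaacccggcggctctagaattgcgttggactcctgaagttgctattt

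Isg15 had 3 overlapping matches, from -78 to -57, and Bst2 had 2 overlapping matches, from -130 to -115. Ifit1 had 2 separate matches on the opposite strand, at -104 to -95 and at -85 to -76, and Rsad2 had 1, at -120 to -111. The 7 genes found in the table had 9 promoters, of which 4 (44.4%) held the element. The share was 3.44% of all 32851 promoters of the same length and 4.68% of the 662 promoters of the other listed genes. Usp18, Rtp4 and Zbp1 had no entry. No match was found within this window for Ube2l6, Samhd1 or any of the 3 Isg20 starts. The gamma-activated sequence, a DNA word of genes induced by interferon gamma, searched as TTCNNNGAA, which reads the same on both strands, was found for Isg20 at -73 to -65, Samhd1 at -235 to -227 and Bst2 at -136 to -128. In Bst2 it overlapped the first response element. That word was in 3 of the 9 promoters (33.3%), in 8.3% of all promoters and in 10.9% of those of the other listed genes. A match is a match of letters and not a bound site.

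**Figure D1:**
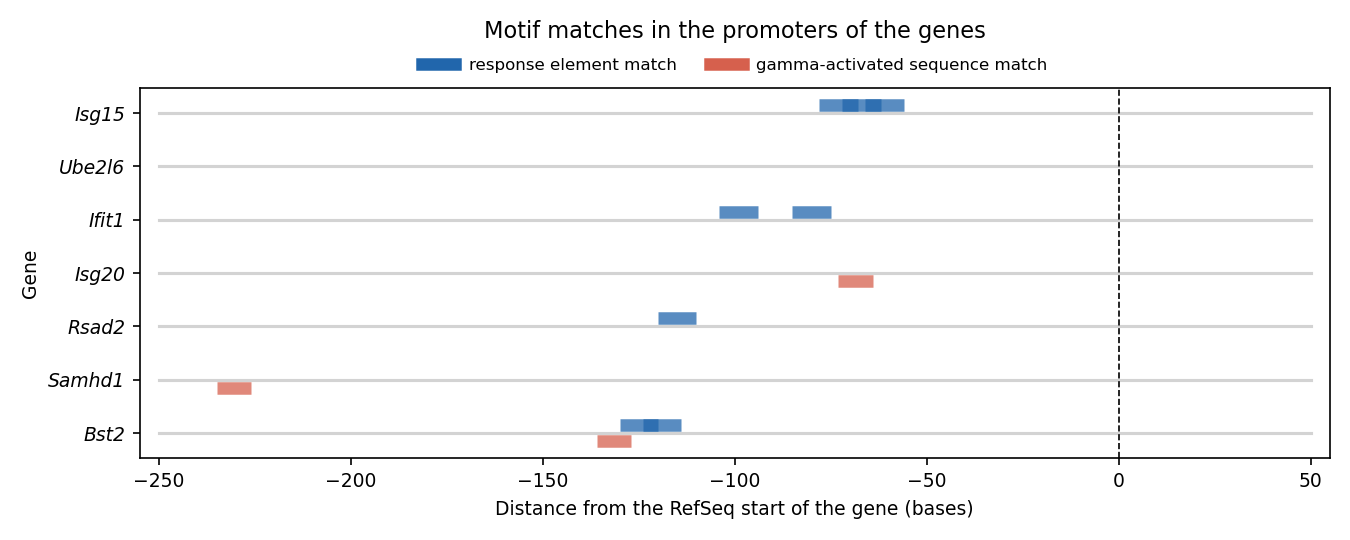
Matches of the interferon-stimulated response element (blue) and of the gamma-activated sequence (red) on either strand of the 7 promoters found in the RefSeq table, by distance in bases from the gene start (dashed line at 0). For Isg20 the first of its 3 starts is drawn. The response element matches of Isg15, Ifit1, Rsad2 and Bst2 all lie between positions -130 and -57.

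Members of this group were in 33 of the 262 lists, with 143 entries in all, and 9 of the 36 sub-clusters had at least 1 member in any list. Of those entries 126 belonged to BM sub-cluster 6 (BM 6) and LI sub-cluster 7 (LI 7), and the other 17 were all Isg15. The study's main text names neither sub-cluster by interferon. Their lists against all held 22 (BM 6) and 24 (LI 7) other interferon-related genes. The members were chosen with earlier results of these data known, so this concentration is a description and no test. The share of all list entries that fell in BM 6 and LI 7 was not computed. No member was in any of the 36 lung lists or the 49 pancreas lists, which named 27.8% and 19.8% of the 688 genes. Lung and pancreas therefore had no sub-cluster set apart by these genes, which says nothing of how much of each mRNA their ILC2s held.

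**Figure D2:**
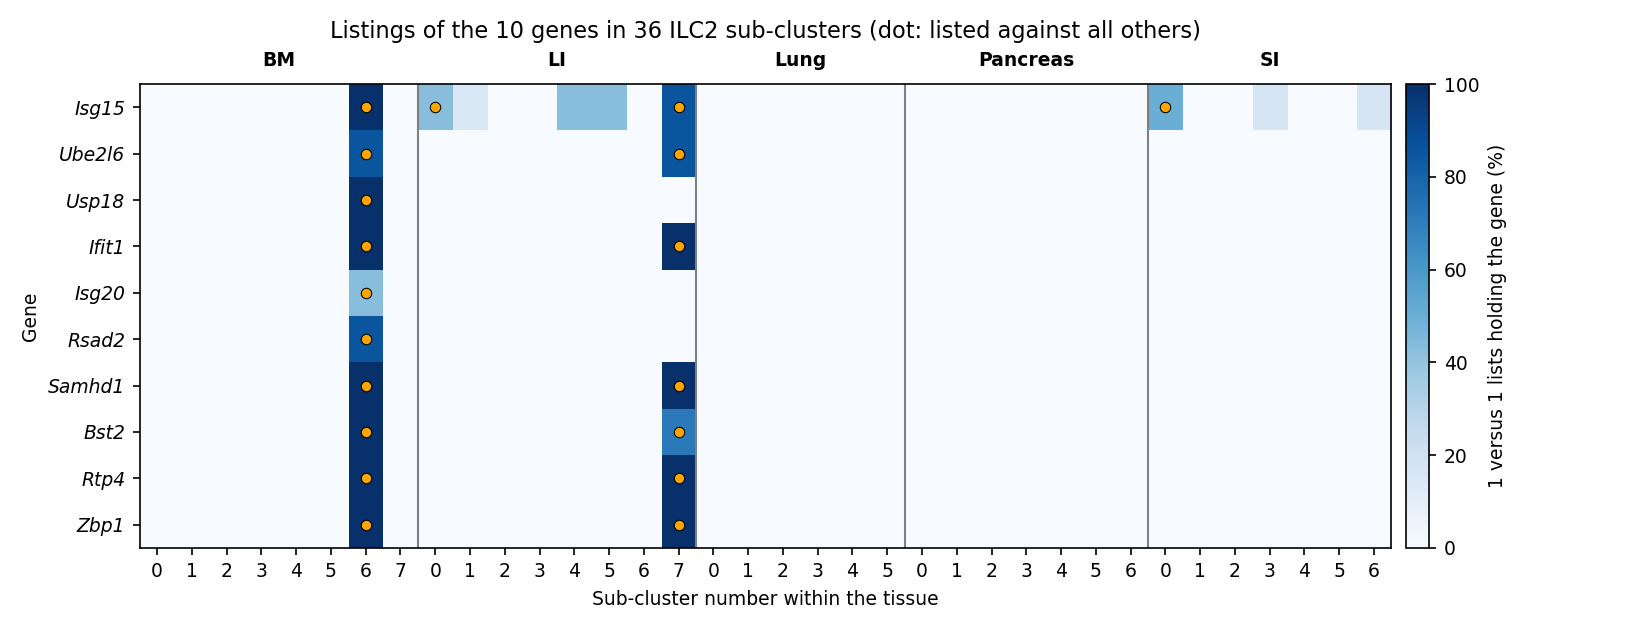
Rows are the 10 genes and columns the 36 sub-clusters, numbered within each tissue. Blue shading gives the percentage of the sub-cluster's 1 versus 1 lists that held the gene and an orange dot marks the list against all others. BM 6 holds a dot for all 10 genes, LI 7 for 7, and Isg15 alone has dots elsewhere, in LI 0 and SI 0.

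In BM 6, all 10 genes were listed against all other BM sub-clusters, in a list of 38 genes (5.52% of the 688). The members were chosen with earlier results of these data known, so this count is a description and no test of the group. The list against all of LI 7 held 39 genes (5.67%), of which 7 were members: Isg15, Ube2l6, Ifit1, Samhd1, Bst2, Rtp4 and Zbp1. Those 7 were therefore against all in both sub-clusters, which shared 28 genes in total, 73.7% of the BM 6 list and 71.8% of the LI 7 list. Usp18, Isg20 and Rsad2 were in the BM 6 list and in no list of any other sub-cluster. The 7 of 10 members shared was near the 73.7% of the whole BM 6 list that was shared. This gap is therefore not particular to the members. That difference between the tissues could not be tested with 1 library each, and BM and LI also differed in library batch and in digestion.

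The 1 versus 1 lists graded these calls. In BM 6, 7 members were in all 7 lists, namely Isg15, Usp18, Ifit1, Samhd1, Bst2, Rtp4 and Zbp1, against 2.91% of the 688 genes. In LI 7, 4 members were in all 7 lists, namely Ifit1, Samhd1, Rtp4 and Zbp1, against 3.49% of the 688 genes. These 4, an RNA-binding protein, a nucleotide hydrolase, a chaperone and a nucleic acid sensor, were the members with a complete record in both tissues, and none of them was in any of the other 34 sub-clusters.

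Of the ISG15 pathway, the modifier itself was the widest listed gene of the group. Isg15 (mm10 chromosome 4, 156199424 to 156200818, minus strand) was in 32 lists, 28 of them 1 versus 1, over 9 sub-clusters of BM, LI and SI. BM 6 listed it over all 7 other BM sub-clusters, and no other BM sub-cluster listed it. LI 7 listed it over LI 1, 2, 3, 4, 5 and 6 but not over LI 0, and LI 0 did not list it over LI 7. Of the 7 members that LI 7 listed against all, Isg15 was the one missing over LI 0.

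Ube2l6 (chromosome 2, 84798828 to 84810335, plus strand), the conjugating enzyme, was listed in BM 6 over all other sub-clusters except BM 7 and in LI 7 over all except LI 6, in 6 of 7 lists each. BM 7 was the MHC class II sub-cluster, and the list against all of LI 6 began with Tnfsf8 and Il17a. Neither listed Ube2l6 in the other direction. Usp18 (chromosome 6, 121245906 to 121270917, plus strand), the protease that reverses the reaction, was in all 7 lists of BM 6 and in no LI list. The LI 7 lists held 36 to 147 genes (median 50) and the BM 6 lists 21 to 46 (median 39). Absence from a list does not show absent mRNA. The modifier and its conjugating enzyme were thus listed in both tissues and the protease in BM 6. Of 6 further genes of this reaction, Uba7, Herc6, Trim25, Ube2e1, Ube2e2 and Usp41, none was in any list.

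Among the effectors that act on RNA, Ifit1 (chromosome 19, 34640871 to 34650009, plus strand) was in all 14 1 versus 1 lists of BM 6 and LI 7. Isg20 (chromosome 7, 78913424 to 78920396, plus strand) had the weakest record of the group. It was in the list against all of BM 6 but in 3 of its 7 1 versus 1 lists, those over BM 2, BM 3 and BM 4, and it was the last of the 38 genes. Of 16 other genes for IFIT proteins and RNA-binding effectors, including Ifit2, Ifit3, Oas1a, Oasl2 and Eif2ak2, 1 was in any list. This was Zc3hav1, the zinc-finger antiviral protein, which was in 1 of the 7 LI 7 lists, in no BM 6 list and in 13 of the 1 versus 1 lists of other sub-clusters.

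Rsad2 (chromosome 12, 26442746 to 26456452, minus strand), the gene of viperin, was listed in BM 6 over all sub-clusters except BM 7 and in no LI list. Samhd1 (chromosome 2, 157097533 to 157135265, minus strand) was in all 14 lists of both sub-clusters. Bst2 (chromosome 8, 71534255 to 71537456, minus strand) was in all 7 lists of BM 6 and in 5 of 7 lists of LI 7, without those over LI 5 and LI 6. Bst2 also marks plasmacytoid dendritic cells, and of the 7 other markers of those cells 1, Ccr9, was in any list. BM 6 listed Ccr9 in 1 of its 7 1 versus 1 lists, as did every other BM sub-cluster except BM 5. LI 7 listed it in 0, and Siglech was in no list. The study treats Ccr9 as a known signature of BM ILC2s. No other marker gene of 9 cell type lists was in the list against all of BM 6 or of LI 7.

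Rtp4 (chromosome 16, 23520291 to 23614222, plus strand) and Zbp1 (chromosome 2, 173206612 to 173218923, minus strand) were each in all 14 lists. All 10 genes were annotated as protein coding, and Ube2l6, Samhd1 and Zbp1 shared chromosome 2 at positions far apart. BM 6 listed all 10 members over BM 2, BM 3 and BM 4, and left out Isg20 over BM 0, BM 1 and BM 5. Its list over BM 7 was its shortest, with 21 genes, and left out Ube2l6, Isg20 and Rsad2. Apart from Usp18, Isg20 and Rsad2, the gaps of LI 7 lay in its lists over LI 0 (Isg15), LI 5 (Bst2) and LI 6 (Bst2 and Ube2l6).

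The genes also kept different places in the lists of the 2 sub-clusters. The sources used here do not say how the authors ordered a list, so places are given as a percentage of the length of the list, with low values at its head. Isg15 stood at 4.76 to 13% of the 7 BM 6 lists (median 7.69%) and at 2.72 to 52% of the 6 LI 7 lists that held it (median 16.7%). Ifit1 was placed later in BM 6, at 28.3 to 42.9%, than in LI 7, at 1.36 to 7.32%. Samhd1 lay at 40.5 to 90.5% in BM 6 and at 13.8 to 27.8% in LI 7.

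Zbp1 and Rtp4 showed the opposite order. Zbp1 stood at 10.3 to 23.8% of the BM 6 lists and at 30.6 to 43.7% of the LI 7 lists. For Rtp4 the places were 15.2 to 36.6% in BM 6 and 40.1 to 60.6% in LI 7. Bst2 stood at 12.8 to 38.1% in BM 6 and at 29.3 to 46.5% in LI 7. Ube2l6 closed the lists of both, at 73.2 to 91.9% in BM 6 and 80.6 to 100% in LI 7, and Rsad2 (84.6 to 100%) and Isg20 (81.1 to 90.2%) did so in BM 6. Lists of 1 sub-cluster share its cells, so these ranges are not replicate error. Places of the other genes in the lists of both sub-clusters were not compared. These differences in place therefore cannot be read as particular to the members.

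**Figure D3:**
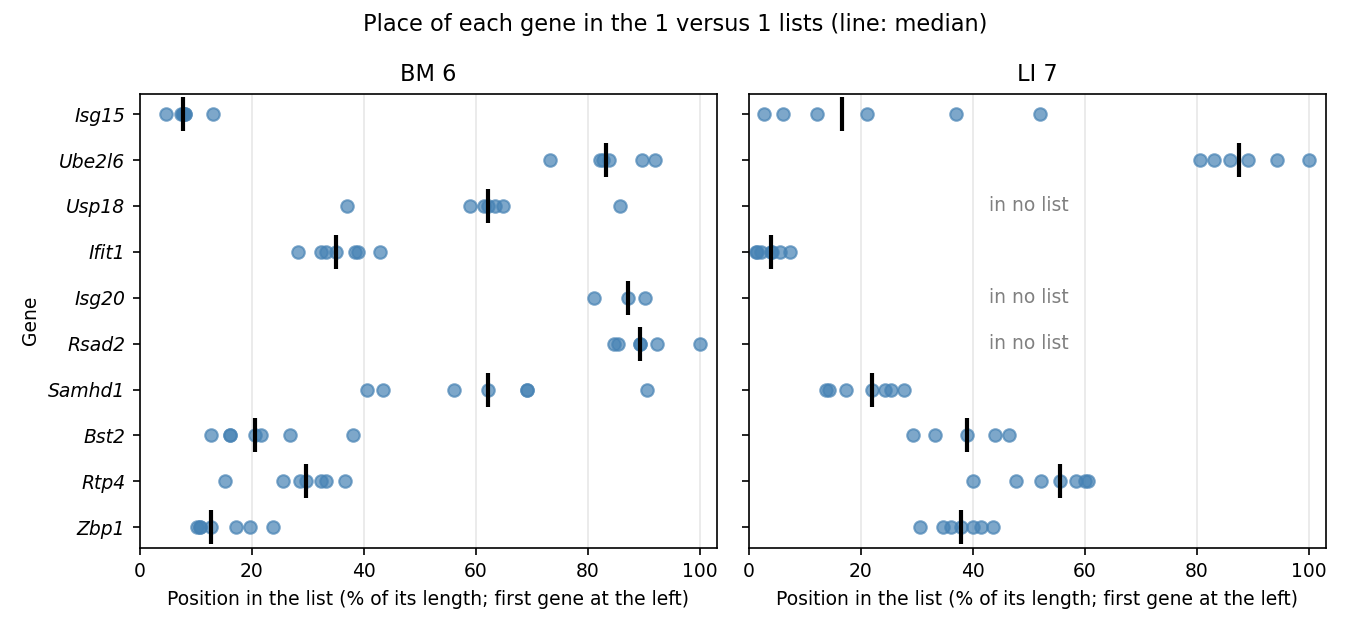
Each blue point is a 1 versus 1 list of BM 6 (left) or LI 7 (right) that held the gene. The horizontal axis gives the place of the gene as a percentage of the list's length and the black line is the median. Isg15 leads BM 6 (median 7.69%) and Ifit1 leads LI 7 (median 4%), Ube2l6 is late in both, and Usp18, Isg20 and Rsad2 are in no LI 7 list.

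Outside BM 6 and LI 7, Isg15 was the only member in any list, with 2 lists against all and 15 lists of 1 versus 1, all from the gut. LI 0 listed it against all (place 29 of 39 genes, 5.67% of the 688), as did SI 0 (place 19 of 27, 3.92%). LI 0, LI 4 and LI 5 each listed it over the same 3 sub-clusters, LI 2, LI 3 and LI 6. LI 1 listed it over LI 3. At least 1 of the 1 versus 1 lists named 31.2% of the 688 genes for LI 0, 22.4% for LI 1, 17.9% for LI 4 and 17.2% for LI 5. A listing by such a sub-cluster was therefore common among listed genes.

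The LI listings formed an order. Of 28 pairs of LI sub-clusters, 16 were separated by Isg15 and none was listed both ways. LI 7 and LI 0 were never below another sub-cluster, whereas LI 4 and LI 5 were each below LI 7 alone. LI 0, 4 and 5 were above LI 2, 3 and 6 and not separated from each other, and LI 2, 3 and 6 listed Isg15 over none. LI 1 was below LI 7 and above LI 3 alone. LI 3 was the sub-cluster most often on the lower side, below LI 0, 1, 4, 5 and 7, and those lists were long, with 68 to 171 genes. The shortest list that held Isg15 outside BM 6 and LI 7 was that of LI 4 over LI 2, where it held place 4 of 9, with Eprs, Spty2d1, Emd, Dnajb6, Arf4, Usmg5, Crem and Cwc25.

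In SI, SI 0 listed Isg15 over SI 2, SI 4 and SI 5, and SI 3 and SI 6 listed it over SI 2. These were 5 of 21 pairs, and SI 2 was on the lower side of 3 of them. At least 1 of the 1 versus 1 lists named 17.4% of the 688 genes for SI 0, 15.7% for SI 3 and 23.7% for SI 6. No SI list held any of the 9 other members, so Isg15 in SI stood apart from Ifit1, Samhd1, Rtp4 and Zbp1, which accompanied it in BM 6 and LI 7. In BM, by contrast, 7 of 28 pairs were separated by Isg15 and all 7 had BM 6 on the higher side.

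**Figure D4:**
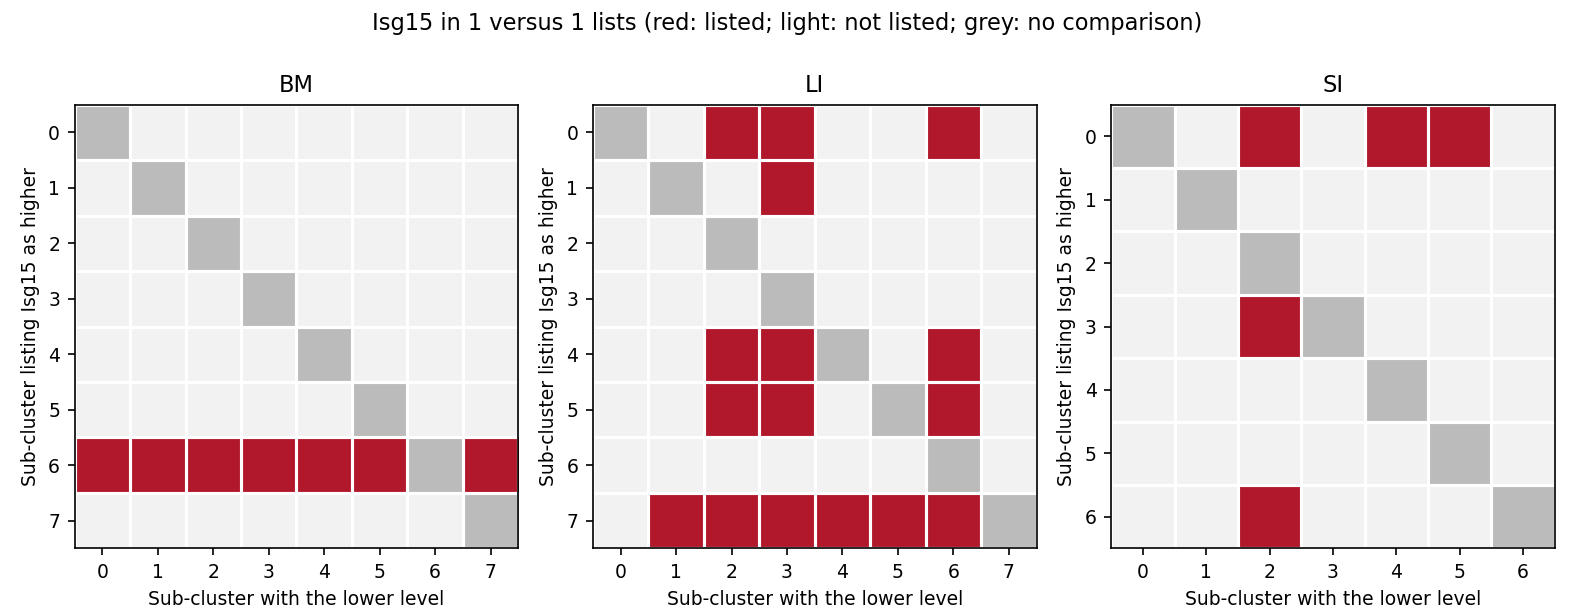
Each red square is a 1 versus 1 list of BM, LI or SI that held Isg15, with the sub-cluster that listed it as higher on the vertical axis and the one with the lower level on the horizontal axis. BM has 1 row of 7 squares (BM 6), LI has 16 squares in 5 rows and SI has 5 squares in 3 rows.

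The companions of Isg15 in these gut lists were not members of the group. Chosen after the values were seen, the genes most often beside it in the 15 lists outside BM 6 and LI 7 were Arl5c, Ccrl2, Cwc25, Dnaja1 and Gm49339, in 10 of 15 each. Dnaja1 encodes a co-chaperone of HSP70, and Ccrl2 a receptor that presents the chemoattractant chemerin. Arl5c, Cwc25 and Dnaja1 were in none of the 14 1 versus 1 lists of BM 6 and LI 7, Gm49339 was in 2 and Ccrl2 in 4. None of the other interferon-related genes described below was in the list against all of LI 0 or SI 0. In the 15 1 versus 1 lists, however, some interferon-related genes did stand beside Isg15. Cxcl10 and Zc3hav1 were in 5 of 15 each, Irf1, Ifngr1 and H2-Q6 in 2 each and Jak2 in 1.

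Patterns over the 226 1 versus 1 lists were compared by the Jaccard index, the lists that hold both genes divided by the lists that hold either. The index is a description, and lists of 1 sub-cluster share its cells. Ifit1, Samhd1, Rtp4 and Zbp1 had identical patterns, which they shared with 9 interferon-induced GTPase genes, Gbp2, Gbp4, Gbp6, Gbp7, Ifi47, Igtp, Irgm1, Tgtp1 and Tgtp2 (index 1). Tgtp1 and Tgtp2 are near-identical copies, and the sources used here do not say how reads that match both were counted. Bst2 was closest to Ifi203 (0.917), then to the same 9 GTPase genes (0.857), and Ube2l6 was equally close to Iigp1, Irf7 and Tap1 (0.923).

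The 3 genes listed in BM 6 alone had other neighbours. Usp18 matched Ifi206 in all 7 lists (index 1), ahead of Psme2 (0.714) and Ifi203 (0.636). Rsad2 was closest to Ifi206 (0.857), Psme2 (0.833) and, level with each other, H2-T23, Mndal and Xaf1 (0.667), and Isg20 to Xaf1 (0.75), Psme2 (0.6) and Ifi206 (0.429). Isg15 reached 0.448 at most, with the same 9 GTPase genes, since 15 of its 28 lists lay elsewhere. Averaged over the 10 members, those 9 GTPase genes had the highest index of all non-members, 0.731 each.

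The rest of the interferon system was then set beside the group, through 9 lists with 165 other genes, of which 40 were in any deposited list. BM 6 listed 22 of the 165 against all and LI 7 listed 24, and 18 were in both. Of the 688 symbols in any list, BM 6 listed 5.52% against all and LI 7 listed 5.67%. Those shares are of listed genes alone, whereas the 165 include genes that no list held. The interferon-induced GTPases, which attack the vacuoles of intracellular pathogens, made up the largest part, with 10 of 23 in BM 6 and 12 of 23 in LI 7. The 10 shared were Gbp2, Gbp4, Gbp6, Gbp7, Irgm1, Igtp, Iigp1, Tgtp1, Tgtp2 and Ifi47. Of the signalling genes, the transcription factor genes Irf1 and Irf7 were in both sub-clusters and Stat3 was in LI 7.

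Of 23 other nucleic acid sensor genes, Ifi203 and Mndal were listed in both sub-clusters. Antigen processing gave 4 of 20 in BM 6 and 5 of 20 in LI 7, with the peptide transporter gene Tap1 and the immunoproteasome gene Psmb10 in both. The chemokine gene Cxcl10, which attracts cells with CXCR3, was in both. Membrane and entry effectors other than the members gave 2 of 40 in BM 6, Ifitm3 and Slfn2, and 0 of 40 in LI 7. Only 7 of those 40 were in any deposited list. Among listed genes the BM 6 count was therefore 2 of 7, beside the 5.52% of the 688 symbols that BM 6 listed against all. No interferon gene was in any list.

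**Figure D5:**
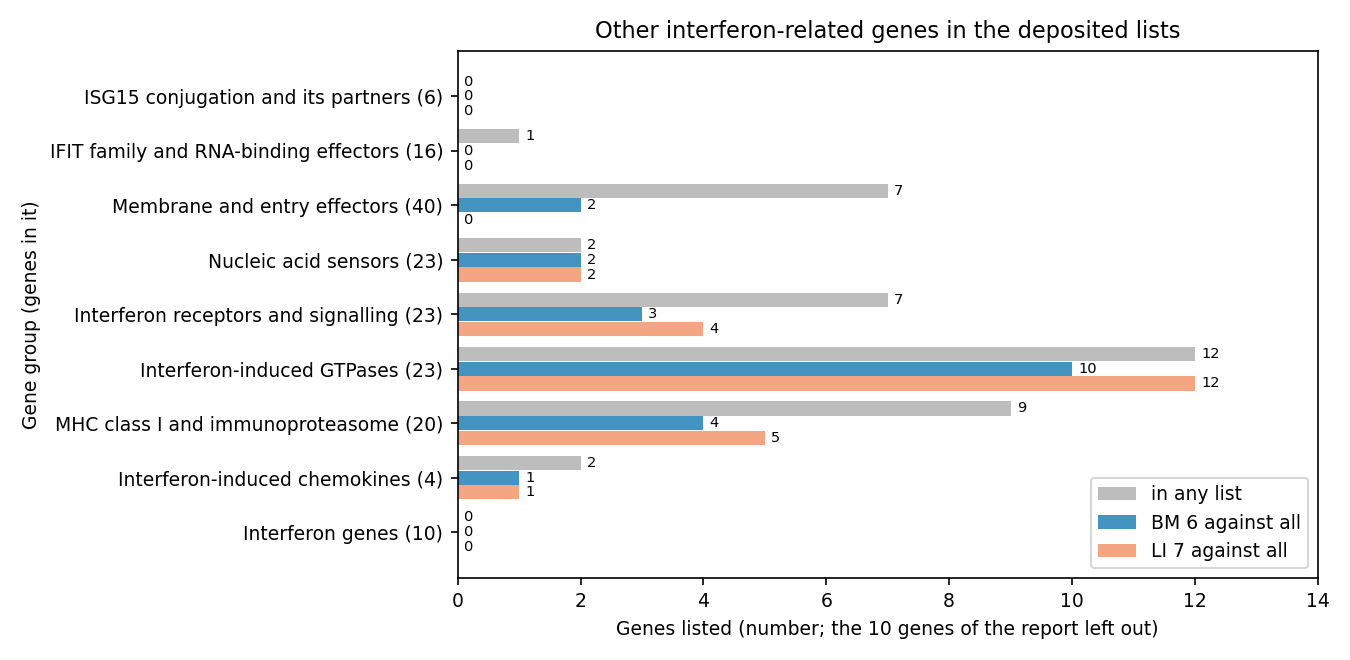
Bars give the number of other interferon-related genes in any deposited list (grey), in the list against all of BM 6 (blue) and in that of LI 7 (orange), with the size of each gene group in brackets. The GTPases show the highest counts, 10 in BM 6 and 12 in LI 7, whereas the other genes of ISG15 conjugation show 0.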

How the data were processed

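The deposited tables, 1 for each tissue, hold gene symbols and no other values. Tools credited to the submitters' processing notes were Seurat (version 2), Cell Ranger and R (3.6.1), with the mm10 build. By the study's methods, cells were filtered with scater, normalised and clustered within a tissue, contaminating clusters were removed, and marker genes were called 1 versus 1 and against all. No source used here states the threshold of these lists, or how doublets were treated, and no column was left unmapped.

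All 262 columns were read with Python 3.11.15. Cells reading NA held no symbol, and symbols were matched exactly. The reading was tested on 20 simulated tables, of which 20 were recovered exactly. A gene was counted in a sub-cluster when its list against all held it, and 1 versus 1 lists graded the call. Coordinates came from GENCODE release M21 and promoters from RefSeq. No statistical test was made, and some listed genes are not reported here. Alternatives were other call rules, other backgrounds, synonyms and a longer motif.

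The members and gene lists were chosen with earlier results of these data known. All members were named. Other interferon-related genes were named when listed against all in sub-clusters of at least 2 tissues, and likeness gave the 3 nearest genes per member and the 5 nearest on average, with ties, while companions of a member were named in lists of at most 10 genes. Further genes were named as examples, chosen after their values were seen. Figures were drawn with matplotlib 3.10.9.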

Additional observations from a re-analysis of the deposited data

How the results depend on the processing

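No paired analysis was possible because each tissue had 1 library, and for the same reason no replicate could be left out. With presence in at least 1 of the 1 versus 1 lists as the rule, LI 1, LI 4, LI 5, SI 3 and SI 6 each went from 0 members to 1, which was Isg15. With at least 50% of those lists, LI 0 went from 1 member to 0. With every one of them, LI 7 went from 7 members to 4, LI 0 and SI 0 from 1 to 0, and the other interferon-related genes from 22 to 11 in BM 6 and from 24 to 15 in LI 7. BM 6 kept 10, 9 and 7 members under these rules. Synonyms and letter case changed no count of members. The longer response element, with CT after the second GAAA, was in the promoters of 2 members in place of 4, Ifit1 and Bst2, and in 0.271% of all promoters. As a share of the genes listed in the same tissue, the list against all was 26% in place of 5.52% for BM 6, 7.99% in place of 3.92% for SI 0, and 8.37% in place of 5.67% for LI 7 and for LI 0. As a share of the genes in any list against all, it was 12.3% for BM 6, 12.7% for LI 7 and for LI 0, and 8.77% for SI 0. Over the lists against all, the gene most like Isg15 was Ccrl2 (0.75) in place of the GTPase genes (0.448). The missing depth and thresholds limit every listing.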

Other observations

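Several interferon-related genes that accompany the group in BM 6 and LI 7 were also listed in sub-clusters where no member other than Isg15 was. Cxcl10 was against all in LI 5 (5 of 7 lists) and in SI 1 (1 of 6), and 12 of its 1 versus 1 lists, all of LI or SI, lay outside BM 6 and LI 7. Irf1, a transcription factor that interferon gamma induces, was against all in SI 1 (4 of 6 lists) and in 4 of the 6 lists of SI 6. In all, 20 of the 1 versus 1 lists of Irf1 lay outside BM 6 and LI 7, in BM, LI, lung and SI. Ifitm3, which blocks viral entry, was against all in BM 6 (5 of 7 lists) and in pancreas 1 (4 of 6). Its relative Ifitm1 was against all in BM 5 (4 of 7 lists).

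Ifngr1, a chain of the interferon gamma receptor, was in no list of BM 6 or LI 7 and was against all in pancreas 5 and SI 2, in 4 of 6 lists each. In SI, where Isg15 was listed by SI 0, SI 3 and SI 6, SI 2 was the sub-cluster that listed Ifngr1 against all and that most often had the lower Isg15. Ifngr1 was also in 3 of 6 1 versus 1 lists of SI 4 and 1 of 6 of SI 3. In LI it was in 1 of 7 lists of LI 0 and 2 of 7 of LI 1. It stood beside Isg15 in 2 of the 15 lists of Isg15 outside BM 6 and LI 7. A relation between the 2 genes was not tested.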
